A study of Mus musculus with 8 samples.

Results

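The genes described here are 31 members of the signalling chain that starts at the T cell receptor: kinases, adaptors, enzymes, phosphatases, ubiquitin ligases and NFAT transcription factors. They were taken by symbol, and all 31 were found among the 41730 entries of the count table and passed the filter on low counts. Of these, 20 were grouped as activators and 11 as brakes. The cells were OT-I CD8+ T cells, which carry a transgenic receptor for the ovalbumin peptide SIINFEKL, sorted after culture with peptide-loaded dendritic cells grown from bone marrow. The 4 control libraries (replicates 1 to 4) came from cells cultured with the solvent DMSO, and the 4 others (replicates 5 to 8) from cells cultured with 2 µM RGX-104. RGX-104 is a man-made ligand that activates the liver X receptors (LXR), nuclear receptors for oxidised cholesterol. The series title asks about T cell activation during cross-presentation under LXR agonism. The time in culture and the age of the mice are not stated in the sources used here. Nor is it stated whether each library had its own culture or animal, so p-values measure only the spread between these libraries, which may be technical.

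When the receptor meets its peptide, the Src family kinases Lck and Fyn phosphorylate its chains, and Zap70 docks there and phosphorylates the adaptors Lat and Lcp2 (SLP-76). These assemble a platform for Plcg1, whose products raise calcium, which activates calcineurin and NFAT, and diacylglycerol, which activates Ras through Rasgrp1 and NF-κB through Prkcq, Bcl10 and Malt1. Csk, Ptpn6 (SHP-1), Ptpn22, the Sts proteins Ubash3a and Ubash3b, the ubiquitin ligases Cbl and Cblb, and the diacylglycerol kinases Dgka and Dgkz restrain the same steps. Much of this control acts on proteins, by phosphorylation and degradation, which RNA counts do not measure.

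RGX-104 libraries held more RNA of the adaptor Lat and of the transcription factor Nfatc2, and no activator or brake was called lower (threshold below). Lat rose 1.31-fold from 144 ± 8.46 to 188 ± 16.5 CPM (the standard unit of read counts scaled to library size, here TMM-normalised; mean ± SD, n = 4 per group), and Nfatc2 rose 1.54-fold from 11.96 ± 2.51 to 18.4 ± 1.78 CPM. These 2 of 31 members passed the threshold of an adjusted p under 0.05 (edgeR's quasi-likelihood test with Benjamini-Hochberg adjustment over all 12162 genes tested), which 2.66% of all genes tested passed. Both were higher, where 0.888% of all genes were called higher and 1.78% lower. The Nfatc2 call held in only 1 of 8 fits that each left out 1 library. By edgeR 0 members were called lower, none had an unadjusted p under 0.05 in that direction, and DESeq2 and limma-voom called 0 lower as well. Negative values, none of them called, were found for 9 of 31 members. The libraries of the groups did not overlap for 7 members, all higher in RGX-104 (22.6%, against 8.20% of all genes tested). Calls and separation were more frequent at high counts in general. Among members with a mean of at least 50 CPM over all libraries, a limit chosen after the values were seen, 1 of 20 was called (5.00%) and 5 did not overlap (25.0%), against 5.22% and 13.2% of the 3699 genes at that level.

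**Figure D1:**
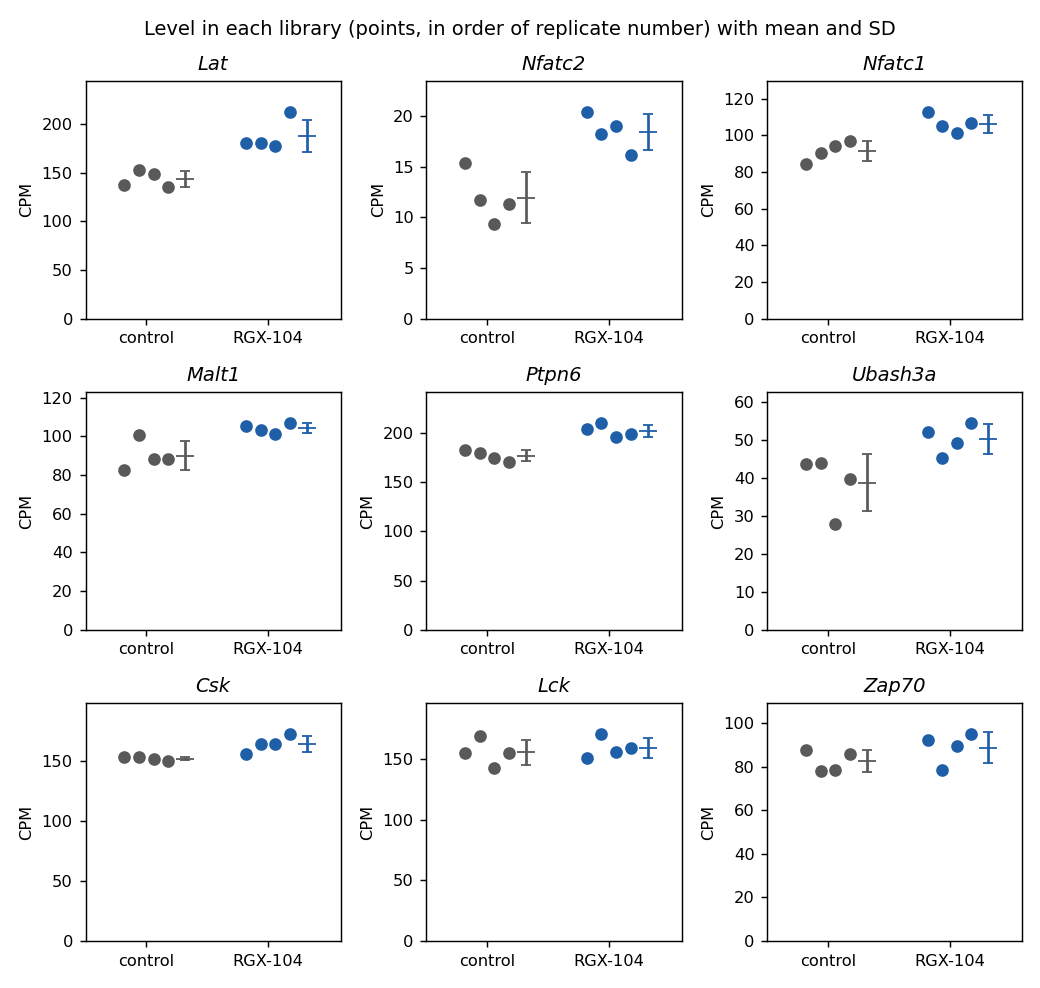
Level of 9 members in each library (y axis, CPM, starting at 0) for 4 control libraries (grey) and 4 RGX-104 libraries (blue), with the mean and SD beside the points. For Lat, Nfatc2, Nfatc1, Malt1, Ptpn6, Ubash3a and Csk every RGX-104 library lay above every control library, while for the kinases Lck and Zap70 the groups overlapped.

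Lat is the membrane adaptor whose phosphorylated tyrosines recruit Plcg1, Grb2 and the Grap2 (Gads) partner of SLP-76. It was at 137.4, 153.2, 148.3 and 135.7 CPM in control replicates 1 to 4 and at 180.8, 181.0, 177.4 and 212.6 CPM in RGX-104 replicates 5 to 8. Every RGX-104 library was above the highest control, and replicate 8 stood above the other 3. The log2 fold change was 0.39 ± 0.07 (± SE; 95% interval 0.25 to 0.53; edgeR adjusted p = 0.00123). It held in 14 of 14 alternative settings, and without replicate 8 the log2 fold change was 0.32. Lat lies on chromosome 7 (GRCm38, 126363827 to 126369705).

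The upstream sequences of the called members, and of the brake with the smallest p (Ptpn6), are shown for the motifs of NFAT, the end point of this chain, and of LXR, the target of RGX-104. They are the 250 bases before each annotated start, from RefSeq's table for GRCm38.p6, 5′ to 3′ on the strand of the gene (minus for all 4 windows). Capitals mark the core of an NFAT site, TGGAAA, on either strand (TTTCCA on the strand shown), and the nuclear receptor hexamer, AGGTCA. The windows are chr7:126369569-126369818 for Lat, chr2:168601658-168601907 for the outer and chr2:168590366-168590615 for the inner start of Nfatc2, and chr6:124738710-124738959 for Ptpn6. The coordinates given above for the Lat gene end at 126369705, so part of its window lies inside the gene. The inner Nfatc2 window lies wholly inside its gene.
Lat: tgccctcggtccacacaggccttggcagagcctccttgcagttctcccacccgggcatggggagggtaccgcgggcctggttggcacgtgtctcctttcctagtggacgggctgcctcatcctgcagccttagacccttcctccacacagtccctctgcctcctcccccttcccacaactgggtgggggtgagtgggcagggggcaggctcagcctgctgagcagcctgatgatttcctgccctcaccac
Nfatc2 outer: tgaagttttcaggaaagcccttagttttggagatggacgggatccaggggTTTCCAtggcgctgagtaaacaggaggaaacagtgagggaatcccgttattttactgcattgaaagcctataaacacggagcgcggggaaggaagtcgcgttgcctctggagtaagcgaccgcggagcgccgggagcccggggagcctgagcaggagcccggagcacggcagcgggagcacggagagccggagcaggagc
Nfatc2 inner: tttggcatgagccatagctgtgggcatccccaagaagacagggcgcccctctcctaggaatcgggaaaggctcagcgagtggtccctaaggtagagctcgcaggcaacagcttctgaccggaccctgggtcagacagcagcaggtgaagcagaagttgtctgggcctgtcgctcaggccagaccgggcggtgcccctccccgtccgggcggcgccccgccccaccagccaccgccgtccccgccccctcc
Ptpn6: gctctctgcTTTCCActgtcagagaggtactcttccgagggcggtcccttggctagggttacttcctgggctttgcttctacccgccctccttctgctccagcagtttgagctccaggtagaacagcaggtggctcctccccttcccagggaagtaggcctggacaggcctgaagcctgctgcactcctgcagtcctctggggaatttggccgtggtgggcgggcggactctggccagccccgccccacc

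The windows of Lat and of the inner Nfatc2 start held neither motif, and the outer Nfatc2 window and that of Ptpn6 held 1 NFAT core each. Windows were found for 27 of the 31 members, 42 in all, and not for Cd6, Malt1, Nfatc1 and Ppp3ca. The NFAT core was in 9 of the 42 windows (Dgka, Nck1, Nfatc2, Ptpn6, Ubash3b and Zap70), against 18.6% of 32817 windows of that length over all genes. The hexamer was in 7 of them (Dgka, Grap2, Lcp2, Nck1, Ubash3b, Vav1 and Zap70), against 14.0% of all. The paired hexamers spaced by any 4 bases that LXR dimers bind, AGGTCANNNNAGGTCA, contain that hexamer. The exact pair was in 0 of the 42, against 0.0152% of all windows (5 of 32817). A pair so rare could hardly be met in 42 windows, so its absence says nothing about these members. Both strands were searched for exact letters. A match is a description of the letters only, and no binding was measured.

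At the top of the chain the kinases gave no called gene. Lck, which phosphorylates the receptor chains first, was at 142.8 to 168.8 CPM in control and 151.0 to 170.6 CPM in RGX-104 libraries (log2 fold change 0.03, 95% interval -0.10 to 0.17). The groups overlapped throughout. Zap70, the kinase that docks on the phosphorylated chains, averaged 82.6 ± 4.99 CPM without and 88.8 ± 7.14 CPM with RGX-104 (log2 fold change 0.10, 95% interval -0.06 to 0.26). Fyn, the other Src kinase, had a log2 fold change of -0.04 (95% interval -0.16 to 0.08). For each of the 3 kinases the interval lay within 1.5-fold in both directions. Ptprc, which encodes CD45, the membrane phosphatase that keeps Src kinases ready and can also restrain them, was at 922 ± 16.3 and 966 ± 37.4 CPM (log2 fold change 0.07, 95% interval -0.02 to 0.15). Reads at transcript ends do not separate its splice forms.

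Besides Lat, the adaptors gave values on both sides of 0. Lcp2, the scaffold of the platform, was at 91.5 ± 10.2 and 102 ± 6.95 CPM (log2 fold change 0.16, edgeR adjusted p = 0.385). Nck1, which links SLP-76 to the actin machinery, had a log2 fold change of -0.19 (95% interval -0.43 to 0.05), with control libraries at 29.3 to 35.7 CPM and RGX-104 libraries at 24.6 to 30.4 CPM. Grb2, the bridge to the Ras activator Sos1, was at 90.2 ± 8.58 and 87.7 ± 10.03 CPM. Its control libraries, at 83.7 to 102.7 CPM, overlapped the RGX-104 libraries, at 77.8 to 101.3 CPM. Grap2 had 1 to 27 reads per library, too few to show a change (log2 fold change 95% interval -1.52 to 1.17).

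Among enzymes and exchange factors no gene was called. Malt1, the protease of the complex that activates NF-κB, came nearest. It was at 82.8, 100.8, 88.4 and 88.1 CPM in control replicates 1 to 4, and at 105.4, 103.5, 101.0 and 106.8 CPM in RGX-104 replicates 5 to 8. The groups did not overlap, but control replicate 2 lay just under the lowest RGX-104 library (log2 fold change 0.21 ± 0.07, edgeR adjusted p = 0.155). Its partner Bcl10 had a log2 fold change of -0.06 (95% interval -0.26 to 0.15). Prkcq, the kinase upstream of that complex, was at 35.8 ± 2.29 and 40.9 ± 2.75 CPM (log2 fold change 0.19, edgeR adjusted p = 0.411).

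Vav1, an exchange factor for Rac, had a log2 fold change of 0.17 (95% interval -0.02 to 0.36). For the Ras exchange factors Rasgrp1 and Sos1 the values were 0.18 (95% interval -0.16 to 0.52) and -0.06 (95% interval -0.24 to 0.12) on the same scale. Plcg1, the phospholipase recruited to Lat, had only 7 to 36 reads per library, and its log2 fold change of -0.73 had a 95% interval from -1.71 to 0.25. Its exons overlap those of Zhx3 on the opposite strand over 379 bp. How reads in such overlaps were counted is not stated in the sources used here, so the low count is not read as a low level of the enzyme.

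The calcium branch held the other called gene, and all 4 of its members had positive values. Nfatc2 (NFAT1), a form present in resting T cells (chromosome 2, GRCm38, 168476410 to 168601657), was at 15.4, 11.8, 9.34 and 11.4 CPM in control replicates 1 to 4 and at 20.4, 18.2, 19.0 and 16.2 CPM in RGX-104 replicates 5 to 8. The groups did not overlap, with control replicate 1 close under RGX-104 replicate 8. The log2 fold change was 0.63 ± 0.17 (95% interval 0.28 to 0.97; edgeR adjusted p = 0.0447). This call rests on 148 to 291 reads per library. It held without control replicate 1 (edgeR adjusted p = 0.0158), and it was lost without any 1 of control replicates 2, 3 and 4 or RGX-104 replicates 5, 6, 7 and 8, where the edgeR adjusted p ran from 0.0605 to 0.162, and with no filter on low counts (edgeR adjusted p = 0.0534).

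Nfatc1 (NFAT2), the form that T cells induce on activation, was at 84.6, 90.6, 94.4 and 97.2 CPM in control and 112.8, 105.2, 101.1 and 106.7 CPM in RGX-104 libraries. All RGX-104 libraries were above all controls, yet edgeR did not call the gene and DESeq2 did so narrowly (log2 fold change 0.22 ± 0.07, edgeR adjusted p = 0.122; DESeq2 adjusted p = 0.0499854). Nfatc3, another calcium-controlled NFAT, was at 278 ± 9.70 and 282 ± 15.8 CPM (log2 fold change 0.02, 95% interval -0.09 to 0.13). Ppp3ca, the catalytic alpha subunit of calcineurin, had a log2 fold change of 0.17 (95% interval -0.03 to 0.37). Whether the fold change of Nfatc2 differed from those of Nfatc1 and Nfatc3 was not tested.

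**Figure D2:**
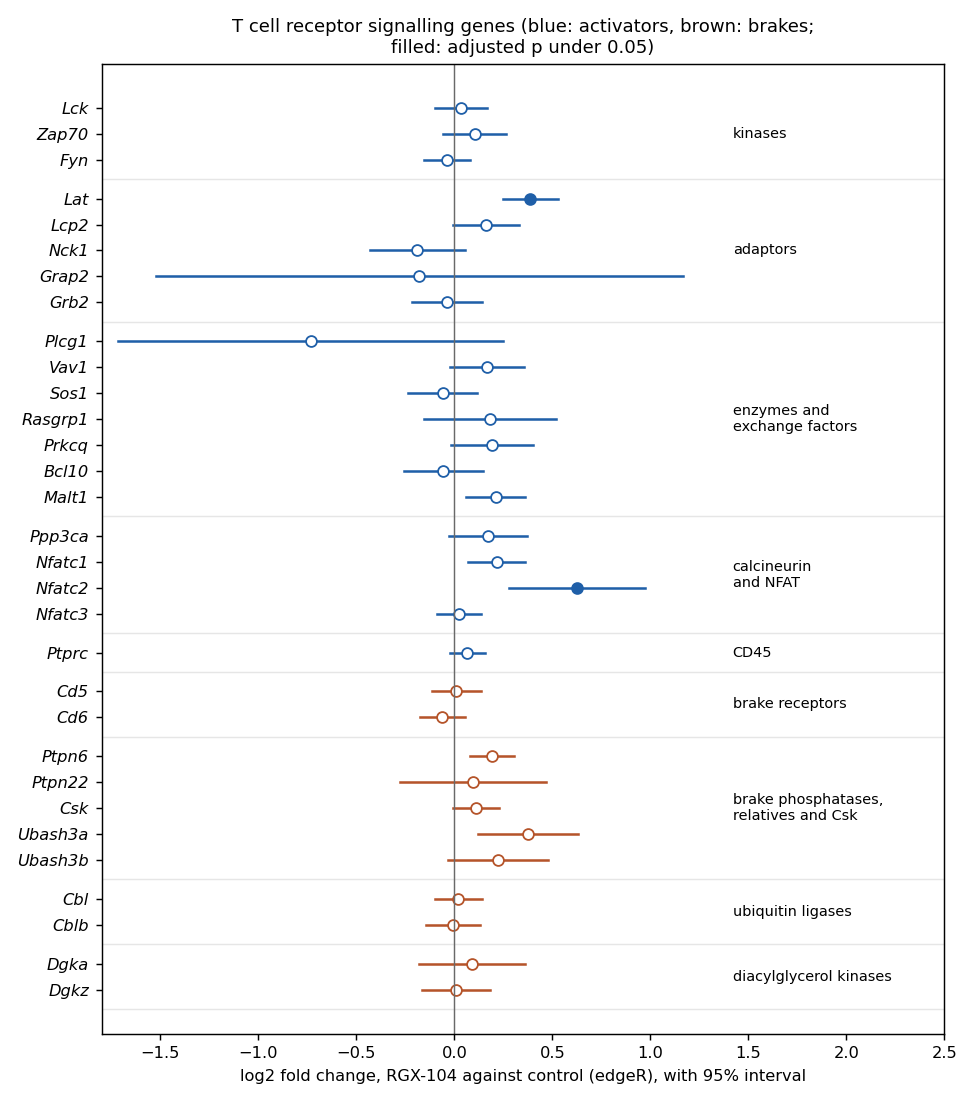
Log2 fold change of each of the 31 members (x axis, RGX-104 against control, point with 95% interval), grouped by role, with activators in blue, brakes in brown and called genes filled. Lat (0.39) and Nfatc2 (0.63) are the filled points, and the long intervals of Grap2 and Plcg1 show the members with few reads.

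No brake was called by edgeR, and 2 of 11 had an unadjusted p under 0.05 (18.2%, against 13.8% of all genes tested). DESeq2 called 1 (Ptpn6, adjusted p = 0.01002) and 3.99% of all genes, and limma-voom called 0. Of the brakes 9 of 11 had positive values (81.8%, against 50.6% of all genes tested and 56.5% of those at 50 CPM or more). Ptpn6 encodes SHP-1, a phosphatase that removes activating phosphates near the receptor. It was at 182.8, 179.9, 174.4 and 170.2 CPM in control replicates 1 to 4 and at 203.4, 209.7, 195.9 and 199.0 CPM in RGX-104 replicates 5 to 8. All RGX-104 libraries stood above all controls with little spread in either group (log2 fold change 0.19 ± 0.05, edgeR adjusted p = 0.0669). Its exons overlap those of Gm20531 on the opposite strand over 195 bp.

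Ubash3a (Sts-2) and Ubash3b (Sts-1) are related proteins that damp signalling through Zap70. Ubash3a was at 43.7, 43.8, 27.8 and 39.6 CPM in control and 52.1, 45.1, 49.2 and 54.3 CPM in RGX-104 libraries. The groups did not overlap, and control replicate 3 lay well under the other controls. The log2 fold change was 0.37 ± 0.12 with all libraries (edgeR adjusted p = 0.129) and 0.25 without that replicate (edgeR adjusted p = 0.344). Ubash3b was at 24.2 ± 1.79 and 28.3 ± 3.01 CPM (log2 fold change 0.22, edgeR adjusted p = 0.439), with overlapping groups.

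Csk, the kinase that switches Src kinases off, had the tightest controls of all members. They were at 153.7, 153.3, 151.5 and 150.6 CPM, and the RGX-104 libraries were at 156.2, 164.4, 164.4 and 172.5 CPM. Although the groups did not overlap, the difference was small (log2 fold change 0.11, 95% interval -0.01 to 0.23, edgeR adjusted p = 0.400). Ptpn22, a phosphatase that works with Csk, had a log2 fold change of 0.10 with a wide interval (95% interval -0.28 to 0.47) at 11.5 ± 1.97 and 12.3 ± 1.93 CPM.

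The other brakes lay near 0. The ubiquitin ligases Cbl and Cblb, which tag receptor components and signalling enzymes for removal, had log2 fold changes of 0.02 (95% interval -0.10 to 0.14) and -0.01 (95% interval -0.15 to 0.13). The receptors Cd5 and Cd6, which carry inhibitory phosphatases and adaptors to the synapse, had values of 0.01 (95% interval -0.11 to 0.13) and -0.06 (95% interval -0.18 to 0.05) on the same scale. Cd5, whose RNA is often used as a gauge of receptor signal strength, was at 162 ± 5.53 and 164 ± 9.65 CPM. For the diacylglycerol kinases Dgka and Dgkz, which remove diacylglycerol, the log2 fold changes were 0.09 (95% interval -0.18 to 0.36) and 0.01 (95% interval -0.16 to 0.18). Dgkz shares 222 bp of exon with Gm9821 and Dgka 105 bp with Pmel, each on the opposite strand.

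The median log2 fold change over 20 activators was 0.09, over 11 brakes 0.09 and over all genes tested 0.00. The medians of the classes were further apart in other settings: 0.089 for activators and 0.027 for brakes without RGX-104 replicate 6, 0.094 and 0.040 without control replicate 4, and 0.133 and 0.093 with limma-voom. The median of brakes was also lower without RGX-104 replicate 5 (0.035), control replicate 1 (0.050) and control replicate 2 (0.052). The order was reversed, with brakes higher, without RGX-104 replicate 7 (0.073 for activators and 0.100 for brakes). The same held without RGX-104 replicate 8 (0.075 and 0.087). Positive values were found for 13 of 20 activators and 9 of 11 brakes, 71.0% of members together, against 50.6% of all genes tested. Among the 20 members at 50 CPM or more, the median was 0.028 and 70.0% were positive. Of all genes at that level, 56.5% were positive, and their median was 0.018. For each library the median over a class was also taken relative to the control mean. In activators it was -0.07 to 0.03 in control and 0.06 to 0.13 in RGX-104 libraries on the log2 scale. In brakes it was -0.02 to 0.03 and 0.04 to 0.12. The difference between the classes has no test here. The interval of the log2 fold change lay inside 1.5-fold in both directions for 27 of 31 members, and the exceptions were Nfatc2, Ubash3a, Grap2 and Plcg1.

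**Figure D3:**
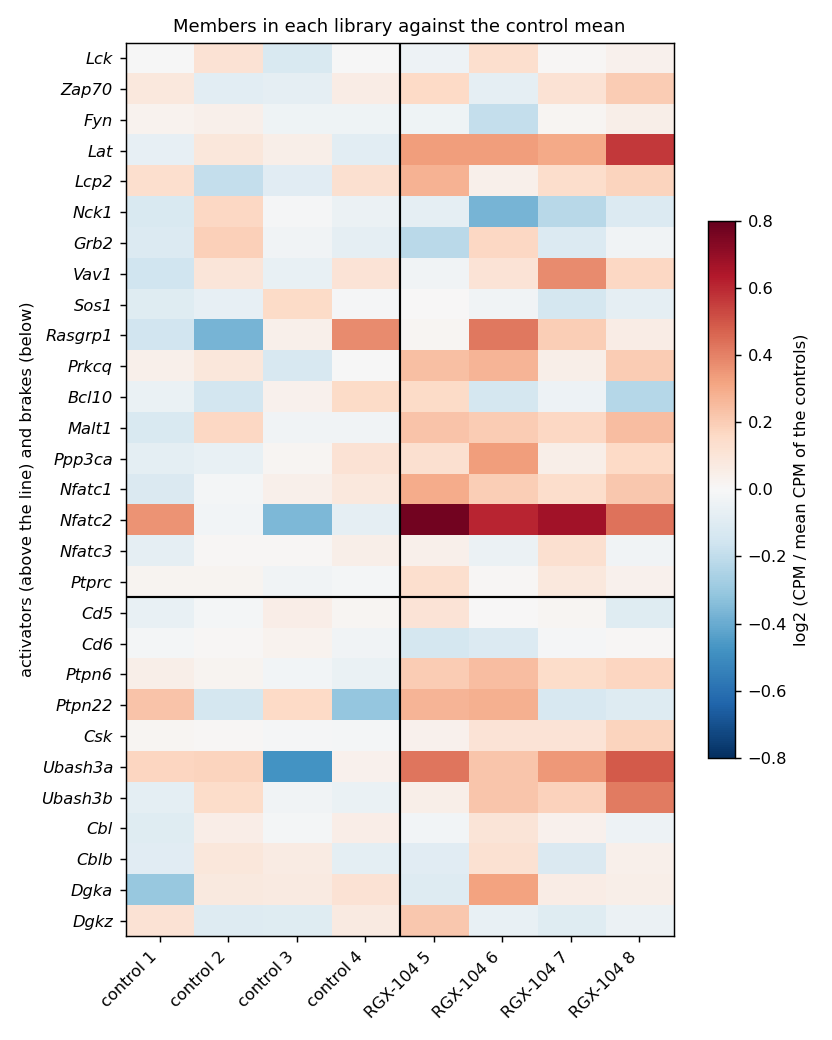
Level of 29 members in each library as log2 of CPM over the mean CPM of the controls (colour scale), activators above the line and brakes below, control libraries 1 to 4 on the left and RGX-104 libraries 5 to 8 on the right. Grap2 and Plcg1, the members with few reads, are left out. Lat, Nfatc2 and Ubash3a hold the deepest red on the right, and control replicate 3 is the bluest control for Nfatc2 and Ubash3a.

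The other genes of the pathway gave called genes in both directions. Of a list of 104, 101 were in the table and 97 were tested, of which 4 rose and 2 fell (6.19% called, against 2.66% of all genes tested). Of the 97, 47 had a mean of at least 50 CPM, where 5.22% of all genes were called. Cd8a and Cd8b1, the chains of the coreceptor that brings Lck to the peptide complex, led with log2 fold changes of 0.52 ± 0.05 (edgeR adjusted p = 3.14e-07) and 0.39 ± 0.05 (edgeR adjusted p = 2.89e-05). Cd8a was at 276 ± 9.58 and 397 ± 8.83 CPM, and its groups stood far apart. The receptor's own signalling chains were not called by edgeR: Cd3d had a log2 fold change of 0.08, Cd3e 0.15, Cd247 0.13 and Cd3g 0.40. For Cd3g the edgeR adjusted p was 0.100 and the DESeq2 adjusted p 0.0299. The receptor's constant chains, Trac, Trbc1 and Trbc2, had no entry under these symbols in the count table.

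Sh2d2a, a T cell adaptor that binds Lck, rose from 175 ± 4.69 to 206 ± 13.5 CPM (log2 fold change 0.23 ± 0.06, edgeR adjusted p = 0.0334). Those that fell were Arhgef6, an exchange factor for Rac and Cdc42, at 19.6 ± 1.07 and 13.7 ± 0.569 CPM (log2 fold change -0.52 ± 0.14, edgeR adjusted p = 0.0470), and the phosphatase Ptpn12, at 32.9 ± 4.69 and 23.7 ± 2.36 CPM (log2 fold change -0.47 ± 0.13, edgeR adjusted p = 0.0488). Each of these 3 lost its call in most of the 8 fits that left out 1 library, Sh2d2a in 6, Ptpn12 in 7 and Arhgef6 in 8. Prkca, a protein kinase C related to Prkcq, lay at the threshold (log2 fold change 0.24 ± 0.07, edgeR adjusted p = 0.0501; DESeq2 adjusted p = 0.0146), next to the calcineurin regulatory subunit Ppp3r1 (0.26 ± 0.07, edgeR adjusted p = 0.0516; DESeq2 adjusted p = 0.0155).

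**Figure D4:**
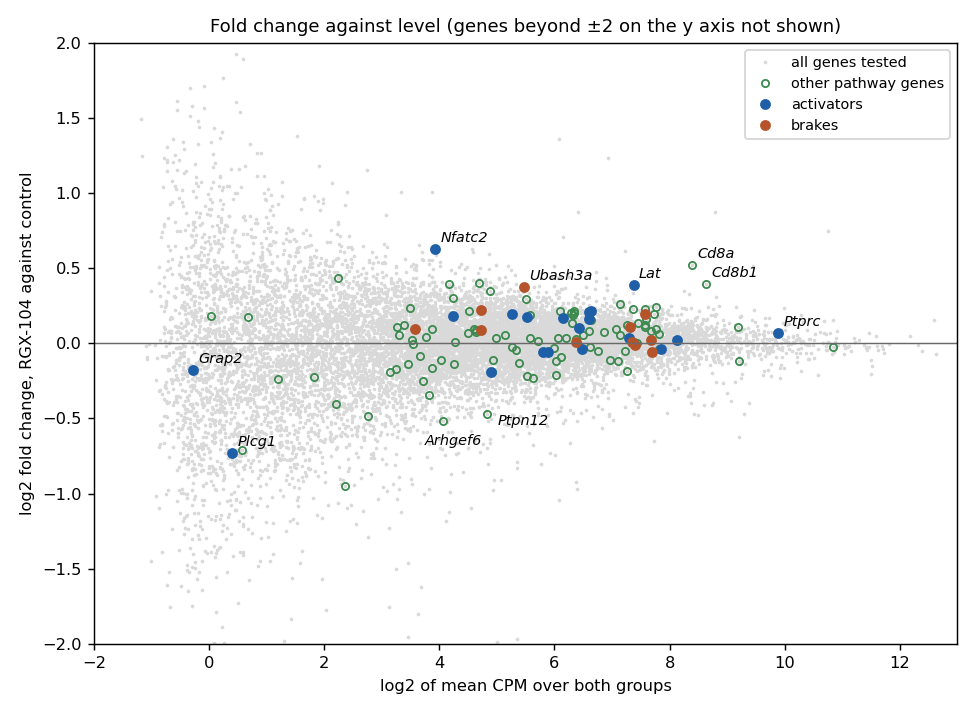
Log2 fold change (y axis) against log2 of the mean CPM over both groups (x axis) for activators (blue), brakes (brown), other pathway genes (green rings) and all genes tested (grey). Of the members, 24 of 31 lie within 0.2 of 0 on the y axis, and Nfatc2 (0.63) and Lat (0.39) lie highest among the members. Genes beyond 2 on the y axis are not shown.

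Genes that receptor signalling induces moved both ways. Of 15, 14 were tested, of which 2 rose and 2 fell (28.6% called, against 2.66% of all genes tested). Of the 14, 9 had a mean of at least 50 CPM, where 5.22% of all genes were called. Irf4 (log2 fold change 0.24 ± 0.05, edgeR adjusted p = 0.00646) and Nr4a3 (0.36 ± 0.07, edgeR adjusted p = 0.00658), both used as gauges of receptor signal, rose. Cd69 (-0.42 ± 0.07, edgeR adjusted p = 0.000649) and Jun (-0.35 ± 0.07, edgeR adjusted p = 0.00713) fell. Nr4a1, a direct reporter of receptor signalling, was at 44.2 ± 9.34 and 51.2 ± 4.90 CPM (edgeR adjusted p = 0.467).

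The identity of the sorted cells and the depth bear on all of these values. Total counts ran from 14867824 to 15966972 in control and from 13144704 to 14947537 in RGX-104 libraries. Of 9 CD8 T cell markers 7 were tested, with Cd2 listed at 0 in all libraries. Their summed level was 1479 to 1550 CPM in control and 1806 to 1863 CPM in RGX-104 libraries. All 7 had positive log2 fold changes, and 3 were called: Cd8a and Cd8b1, given above as pathway genes, and Thy1 (0.19, edgeR adjusted p = 0.0258). The groups overlapped for Cd3d (0.08), Cd3e (0.15) and Cd247 (0.13). Cd4 and Foxp3 had 5 and 6 reads over all libraries. Dendritic cell markers (6 of 14 tested, H2-Aa, H2-Ab1 and H2-Eb1 listed at 0) summed to 20.3 to 23.4 CPM in control and 14.1 to 18.7 CPM in RGX-104 libraries. Of the 6, 0 were called and 5 had negative values, with Itgax positive. Ccl22 (means of 3.66 and 1.61 CPM) and Fscn1 (4.23 and 2.37 CPM) fell most in CPM. As the T cell marker Cd2 was also listed at 0, an entry at 0 is not read as absence of the RNA. Macrophage and monocyte markers (6 of 8 tested) summed to 102 to 117 and 107 to 133 CPM, most of it Cst3 and Ctss. CD4 and regulatory T cell markers (3 of 5 tested) summed to 25.6 to 26.8 and 16.9 to 22.0 CPM. Most of this sum was Ctla4, at 20.7 ± 0.835 CPM in control and 15.4 ± 1.23 CPM in RGX-104 libraries. NK cell markers summed to 1.26 to 2.84 and 1.19 to 3.12 CPM, and B cell markers to 1.78 to 2.42 and 1.37 to 2.08 CPM, with Cd79a listed at 0. The summed markers of CD8 T cells, CD4 and regulatory T cells (mostly Ctla4) and dendritic cells shifted. The part of these shifts in the results for Lat and Nfatc2 was not tested. In such bulk samples, fewer cells of a type and less RNA per cell cannot be told apart.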

How the data were processed

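RNA of 8 libraries was sequenced, 4 control and 4 RGX-104. Per the labels' protocols, total RNA of sorted cells went into a Lexogen 3′ FWD kit, which reads transcript ends. The authors deposited raw counts, 1 whole number for each gene and library. The submitters' processing notes name STAR 2.7.8a, the build GRCm38, R 4.1.0 and DESeq2 1.4. The sources used here state no counting tool, strand setting, annotation release or molecular identifiers.

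Columns were matched to samples by number and group word (0 columns of other series). R 4.3.3 with edgeR 4.0.16 was used for the fit (low counts removed by filterByExpr, TMM scaling, estimateDisp, glmQLFit without robust estimation, glmQLFTest, two-sided, group as the only term), with adjustment over all 12162 genes. The standard error was the log2 fold change over the square root of F, and 95% intervals used the t quantile. CPM used TMM-scaled library sizes. Its biological coefficient of variation came to 14.5%. In every pair from 1 group the chi-square was 6.52 to 10.003 times that of counting noise, so no library was treated as a repeat. The script was tested on simulated data.

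Members and gene lists were chosen with earlier results of these data known. Values per library are given for members that were called, had an unadjusted p under 0.05 or did not overlap. Of other pathway genes, the called ones and the 5 next in p are named, and of response genes the called ones and Nr4a1. A called pathway gene and a marker list are not reported here. Entries that repeat a member's symbol (Lck, Grap2 and Ptpn22) are listed at 0. In the GENCODE M21 annotation, 6 members share at least 100 bp of exon with another gene, and Lcp2 and Nfatc3 are the ones not named for this in the results. Alternatives were DESeq2 1.42.0, limma-voom (limma 3.58.1), RLE factors, 2 other filters (at least 1 count in all, or 50 counts in 4 libraries), repeated symbols added to their gene, each library left out, and other class assignments. Gene coordinates (GRCm38) and upstream windows (GRCm38.p6) are those of RefSeq, all 1-based.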

Additional observations from a re-analysis of the deposited data

Results flagged for a closer look

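In 62 groups of 4 libraries (31 members in 2 groups), 3 libraries stood apart from the other 3 of their group by more than Dixon's 95% limit, and chance flags about 1 group in 20. Lat in RGX-104 replicate 8 was at 212.6 CPM, with the others at 177.4 to 181.0 CPM. Dgka in control replicate 1 was at 20.86 CPM, under the other controls at 27.1 to 27.8 CPM. Dgkz in RGX-104 replicate 5 was at 95.96 CPM, above the others at 77.2 to 80.004 CPM.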

How the results depend on the processing

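No paired analysis was run. The replicate numbers give no pairs, and whether libraries of the groups were paired is not stated in the sources used here. DESeq2 called 4 members, all higher (Lat, Nfatc1, Nfatc2 and Ptpn6), and with no filter on low counts 1 was called (Lat). Leaving out 1 library gave 1 to 2 called members, all higher, and Lat was among them each time. No member was called lower under any alternative run. Of other pathway genes 12 were called by DESeq2, 10 with a stricter filter and 2 to 5 with 1 library left out, against 6. Over all genes, 202 to 303 were called with 1 library left out, against 324, and 485 by DESeq2, fewer than 1.5 times as many. The median log2 fold change of activators was 0.13 with limma-voom (0.1326), the stricter filter (0.1279, where Grap2 and Plcg1 were not tested) and without members of a double role (0.1324), and 0.073 to 0.106 with 1 library left out. That of brakes was 0.027 to 0.108 with 1 library left out. The cause of these shifts was not tested. The members left out for a double role were Ptprc, Fyn, Cd6 and Cbl. Low counts limit what can be said of Grap2 and Plcg1, at under 40 reads per library, and the cause of the low counts was not tested.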

Other observations

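Calcium entry genes of the pathway list, chosen after their values were seen, gave no called gene by edgeR. Orai1, the channel subunit, averaged 75.5 ± 5.88 CPM without and 86.6 ± 5.12 CPM with RGX-104 (log2 fold change 0.20 ± 0.08, edgeR adjusted p = 0.236). Stim2, a sensor of stored calcium, was at 69.9 ± 3.32 and 60.5 ± 3.88 CPM (log2 fold change -0.21 ± 0.08, edgeR adjusted p = 0.224), with every RGX-104 library below every control. Orai2, another channel subunit, was at 7.87 ± 1.71 and 5.62 ± 0.732 CPM (log2 fold change -0.49 ± 0.23, edgeR adjusted p = 0.344). Orai3 and the sensor Stim1 had log2 fold changes of 0.23 ± 0.20 (edgeR adjusted p = 0.656) and -0.09 ± 0.08 (edgeR adjusted p = 0.691). Tec, a tyrosine kinase, was at 6.81 ± 2.34 and 3.51 ± 0.373 CPM (log2 fold change -0.95 ± 0.28, edgeR adjusted p = 0.0803; DESeq2 adjusted p = 0.0333). Ezr, which encodes the membrane linker ezrin, was at 197 ± 6.49 and 225 ± 7.90 CPM (log2 fold change 0.20 ± 0.05, edgeR adjusted p = 0.0566; DESeq2 adjusted p = 0.00721).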
